A study of Mus musculus with 36 samples.

Results

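Aggrecan is the large proteoglycan that holds water in cartilage and lets it resist compression, and in the matrix many aggrecan molecules are bound along a thread of hyaluronan, each contact being locked by a link protein. Chondrocytes make hyaluronan at their surface with synthases, hold it there through the receptor CD44 and break it down with hyaluronidases, so the aggregate is built and cleared by a small group of genes. Loss of aggrecan from the matrix, through cleavage by ADAMTS proteases, is an early event in osteoarthritis. The genes described here were 10 that build, bind or degrade these aggregates, of 23070 named genes with a row of RNA counts: the proteoglycans Acan and Vcan, the link proteins Hapln1 and Hapln3, the hyaluronan synthases Has1, Has2 and Has3, the receptor Cd44 and the hyaluronidases Hyal1 and Hyal2. They were chosen by function, with earlier results of these data known. Gene positions are those of the mouse genome build GRCm38 (mm10). For each gene, the RefSeq transcript with the highest mean count over all libraries was followed, together with the CpG cytosines covered in the gene body and 5000 bases on either side, which came to 432 of 1444973 cytosines tested at 4 weeks and 399 of 1273121 at 12 weeks.

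The cartilage came from male C57BL/6J mice operated at 12 weeks of age. The right knee received destabilization of the medial meniscus (DMM), in which the ligament that anchors the medial meniscus is cut so that the joint becomes unstable, and the unoperated left knee of the same mice served as the contralateral control. Tibial and femoral cartilage was dissected 4 or 12 weeks after surgery, and each sample pooled 3 knees, so the design held 3 control and 3 DMM samples at each week, with RNA and DNA taken from different mice. No sham-operated or naive joint was included. Where a comparison spans the weeks, age, time since surgery and harvest cannot be told apart.

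The 12 RNA libraries held between 27706547 and 62737656 counts. Transcripts of marrow, blood and muscle were present in all of them. The summed level of 11 skeletal muscle markers ranged from 5772 to 20716 CPM (the counts of a transcript scaled to the effective total of its library, the usual unit of level in edgeR) in 4-week control cartilage and from 510 to 3461 in 4-week DMM cartilage, and at 12 weeks from 86.7 to 14889 in control and from 529 to 11084 in DMM. The sum of 8 neutrophil and marrow markers ran from 8735 to 24949 in 4-week control, from 12731 to 18924 in 4-week DMM, from 24639 to 41660 in 12-week control and from 19669 to 32497 in 12-week DMM. In bulk tissue, fewer cells of a type and less RNA per cell cannot be told apart. The sum of 14 chondrocyte markers, among them the cartilage collagens, was at least 15548 CPM in every library. That lowest sum was in 12-week control replicate 3, where the neutrophil and marrow markers summed to 34778 CPM. Chondrocyte transcripts were thus present throughout, and the share of chondrocytes among the cells was not measured.

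Per kilobase of transcript, Acan was the most abundant of the 10, at 64.8 CPM per kilobase averaged over the 12 libraries, where it ranked 829 of 23057 genes. Hapln1 followed at 44.3, Cd44 at 36.6, Has1 at 19.9, Hyal2 at 14.1, Hyal1 at 5.10, Has2 at 2.65, Vcan at 1.47, Hapln3 at 1.05 and Has3 at 0.0270 CPM per kilobase. These levels hold for the rows followed. The rows of Cd44 (5654 bases) and Vcan (12432 bases) include alternative exons, described below, with fewer reads per kilobase than the rest. Over the exons that all forms share both levels would be higher, so the order of Hapln1 and Cd44 may depend on the row. Most neighbours in this order overlapped between libraries. Acan ranged from 25.2 to 115 CPM per kilobase, Hapln1 from 18.5 to 62.4, Cd44 from 24.9 to 55.3 and Has1 from 4.09 to 41.0. The library ranges of neighbours did not overlap between Hyal2 (11.02 to 17.1) and Hyal1 (3.62 to 6.54), nor between Hapln3 (0.417 to 1.73) and Has3 (0.00647 to 0.0515). On average Acan stood above Vcan, Hapln1 above Hapln3, and Has1 above Has2 and Has3. Other proteoglycans were not compared here. The plot of RNA levels shows every library of every member.

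**Figure D1:**
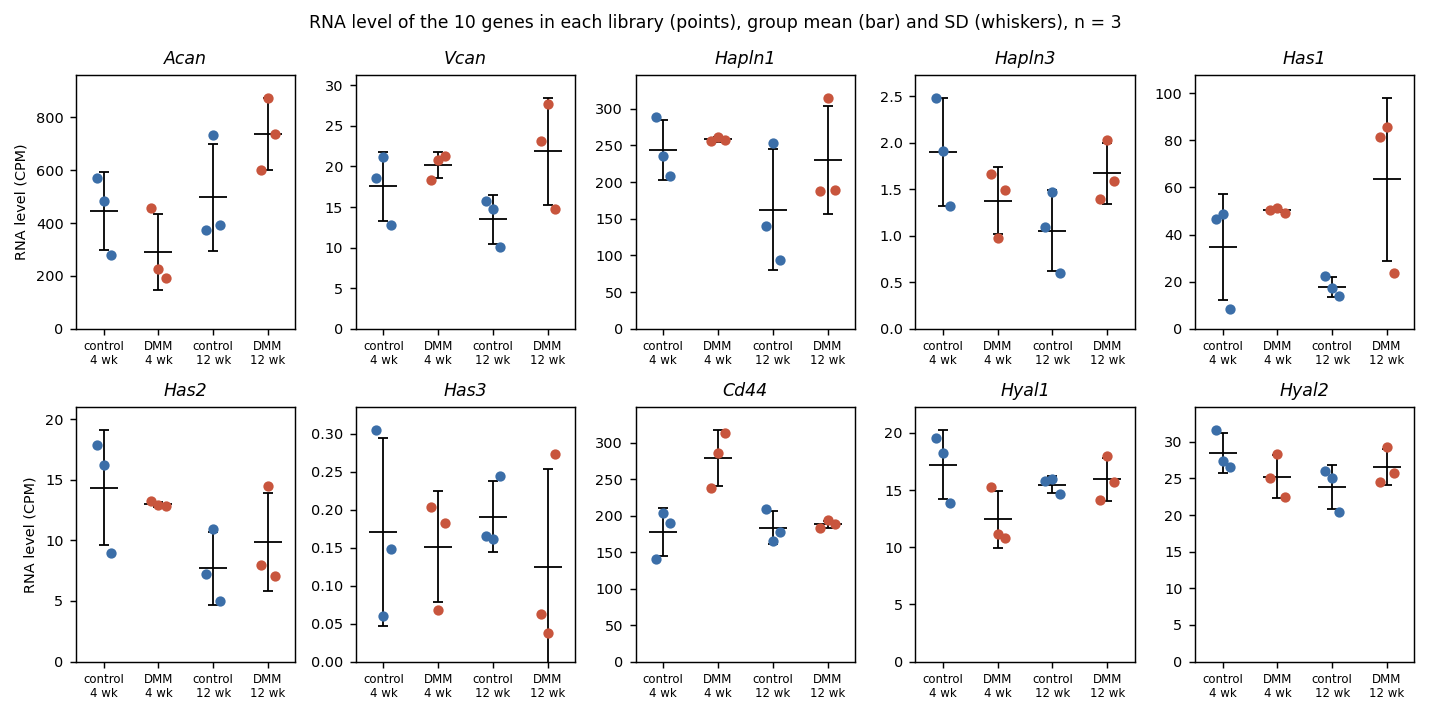
RNA level of the 10 members in CPM, 1 panel a gene on its own linear axis from 0, by limb and week. Points are the 3 libraries of a group, bars the mean and whiskers the SD. Has1 is the gene with the widest log2 difference between limbs at 12 weeks, with all 3 DMM libraries (23.6 to 85.7 CPM) above the 3 control libraries (14.1 to 22.4 CPM).

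On the log2 scale, the widest differences between limbs were of Cd44, higher in every DMM library at 4 weeks, and of Has1, higher in every DMM library at 12 weeks. Acan was lower on average in DMM at 4 weeks and higher at 12 weeks, with the limbs overlapping at both. Of the 9 members that could be tested, 4 were higher in DMM at 4 weeks, with a median log2 difference of -0.14 beside -0.03 over all 21140 transcripts, and 9 of 9 were higher at 12 weeks, with a median of 0.51 beside 0.01 over all 21010. Single libraries held the sign of the smaller differences: on leaving 1 library out it turned for Has2 and Hapln1 at 4 weeks and for Has2, Cd44 and Hyal1 at 12 weeks. edgeR called none of the 9 at either week, where it called 0.0757% and 0.00476% of all transcripts. DESeq2 called 0 members at 4 weeks and 1, Has1, at 12 weeks, where it called 3.54% and 4.16%. At an unadjusted p under 0.05 in edgeR stood 1 of 9 members at 4 weeks (Cd44) and 2 of 9 at 12 weeks (Has1 and Vcan), beside 13.7% and 16.3% of all transcripts. The limbs did not overlap for 2 of 9 members at 4 weeks and 1 of 9 at 12 weeks, beside 21.1% and 18.3% of genes. The counts of members at an unadjusted p under 0.05 or without overlap stood near the background. The 9 of 9 members higher at 12 weeks, beside 10813 of all 21010 transcripts, are a description: Cd44 and Hyal1 were at 0.04 and 0.05 with an SE of 0.14 each, some members moved together across libraries, and 14 of 14 chondrocyte markers were higher as well.

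Acan (chr7:79053226-79115099, plus strand) encodes aggrecan itself. In 4-week control cartilage its level was 570, 484 and 281 CPM in replicates 1 to 3, and in 4-week DMM cartilage it was 456, 227 and 192 CPM. At 12 weeks control cartilage held 372, 732 and 391 CPM and DMM cartilage 601, 874 and 736 CPM. The limbs overlapped at both weeks, with DMM lower on average at 4 weeks and higher on average at 12 weeks. The log2 difference of DMM from control was -0.60 (SE 0.40, adjusted p = 0.475, edgeR quasi-likelihood test) at 4 weeks and 0.57 (SE 0.29, adjusted p = 0.347) at 12 weeks, so neither passed the threshold of 0.05. Single libraries moved both, from -1.10 (without DMM replicate 1) to -0.36 (without DMM replicate 3) at 4 weeks and at 12 weeks to as little as 0.38 when control replicate 1 was left out and as much as 0.92 when control replicate 2 was. Acan shares 93 bases with the antisense transcript Gm26633, which has no count row of its own. The change in that difference between the weeks was 1.17 on the log2 scale (SE 0.54), with an unadjusted p of 0.0492 in edgeR and an adjusted p of 0.406. Within DMM cartilage alone, Acan was higher at 12 than at 4 weeks by 1.34 on the log2 scale (SE 0.39, adjusted p = 0.0280, edgeR). In that comparison edgeR called 23.6% of all transcripts. For Acan all 3 libraries of 12 weeks lay above all 3 of 4 weeks. The share of all genes without overlap between weeks was not counted. The Acan call rested on few libraries. It was lost on leaving out DMM replicate 2 or 3 of 4 weeks (adjusted p = 0.111 and 0.133, edgeR) or DMM replicate 2 or 3 of 12 weeks (adjusted p = 0.0859 and 0.0708), although the difference stayed between 1.06 and 1.82 under every alternative run.

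The chondrocyte markers stood on the same side as Acan at both weeks. At 4 weeks 12 of the 14 were lower in DMM, with a median log2 difference of -0.90, and their summed level ranged from 17834 to 28409 CPM in DMM against 22252 to 54717 CPM in control. At 12 weeks 14 of 14 were higher, with a median of 0.44, and the sums ranged from 29935 to 48679 CPM in DMM against 15548 to 45438 CPM in control. None of these markers was called by limb at either week, and none was at 0 in any library. At an unadjusted p under 0.05 in edgeR stood 8 of 14 at 4 weeks and 2 of 14 at 12 weeks, beside 13.7% and 16.3% of all transcripts. Within DMM cartilage 12 of the 14 were higher at 12 than at 4 weeks, with a median of 0.62, and edgeR called 3 higher. The 11 skeletal muscle markers were also all lower in DMM at 4 weeks, by a median of -2.46 on the log2 scale, and 1 of them was called. The part of either list in the Acan levels was not tested.

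Vcan (chr13:89655309-89743027, minus strand) encodes versican, a hyaluronan-binding proteoglycan of looser and developing tissues that is a minor component of adult cartilage. Its level was 18.6, 21.2 and 12.8 CPM in control and 18.3, 20.9 and 21.3 CPM in DMM at 4 weeks. At 12 weeks it was 15.7, 14.7 and 10.03 CPM in control and 23.2, 27.7 and 14.8 CPM in DMM. The limbs overlapped at 4 weeks, and at 12 weeks only DMM replicate 3 fell within the control range. The log2 difference was 0.20 (SE 0.22, adjusted p = 0.668, edgeR) at 4 weeks and 0.70 (SE 0.26) at 12 weeks, where the unadjusted p was 0.0272 and the adjusted p 0.275 in edgeR. Over the 12 libraries the correlation of the log2 levels of Vcan and Acan was 0.138, with the groups, the depth and the tissue makeup of each library shared by both genes. Among the 5 genes whose levels followed Acan most closely, of 13562 compared, were Itga3 (r = 0.986), Fuz (r = 0.982), Tspyl2 (r = 0.982) and Frs3 (r = 0.978). Those closest to Vcan were Zfp354a (r = 0.982), Tmem62 (r = 0.957), Efna2 (r = 0.930), Spsb4 (r = 0.925) and Hbegf (r = 0.925). Each r was a description over 12 libraries.

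The link proteins stabilize the bond between proteoglycan and hyaluronan. Hapln1 (chr13:89540529-89611832, plus strand), the link protein of cartilage, stood at 289, 235 and 209 CPM in control and 255, 262 and 258 CPM in DMM at 4 weeks. At 12 weeks it was 139, 254 and 93.6 CPM in control and 187, 315 and 189 CPM in DMM. Its log2 difference was 0.08 (SE 0.20, adjusted p = 0.864, edgeR) and then 0.51 (SE 0.37, adjusted p = 0.490), and the limbs overlapped at both weeks. Hapln3 (chr7:79117027-79133173, minus strand), a related link protein with a wide tissue distribution, was low in these libraries, with 22 to 106 counts in each. It read 2.48, 1.91 and 1.32 CPM in control and 1.66, 0.974 and 1.49 CPM in DMM at 4 weeks, and 1.09, 1.47 and 0.598 CPM in control and 1.39, 2.03 and 1.59 CPM in DMM at 12 weeks. Its difference was -0.47 (SE 0.36, adjusted p = 0.528, edgeR) at 4 weeks and 0.65 (SE 0.38, adjusted p = 0.401) at 12 weeks. Neither link protein was called, and the change between weeks for Hapln3 (1.12 on the log2 scale, SE 0.53) had an adjusted p of 0.409 in edgeR.

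The synthases extrude hyaluronan through the cell membrane. Has1 (chr17:17833691-17855589, minus strand) showed the widest log2 difference between limbs of the 9 genes tested at 12 weeks. It was 22.4, 17.1 and 14.1 CPM in 12-week control cartilage and 81.2, 85.7 and 23.6 CPM in 12-week DMM cartilage. All 3 DMM libraries lay above all 3 control libraries, replicate 3 only just, and the mean was 3.55 times that of control. The log2 difference was 1.84 (SE 0.50), with an unadjusted p of 0.00975 and an adjusted p of 0.236 in edgeR, so the call was not made there. DESeq2 on the same counts gave 1.83 with an adjusted p of 0.00125. On leaving out DMM replicate 3, edgeR gave 2.23 with an adjusted p of 0.0129. Over all 13 alternatives the adjusted p ran from 0.00125 to 0.691 and the difference from 1.58 to 2.23. Fibroblast and synovium markers stood beside Has1 at 12 weeks, 5 of 8 higher in DMM with a median log2 difference of 0.91 and none called by edgeR. Their summed level ranged from 10283 to 13820 CPM in DMM against 7323 to 15581 CPM in control, and none was at 0 in any library. Col3a1, the collagen of loose connective tissue, was 345 ± 134 CPM in control and 1685 ± 703 CPM in DMM, and Dpt, dermatopontin, was 2.84 ± 0.433 and 27.5 ± 16.5 CPM (SD, n = 3). The limbs did not overlap for either. The 3 lower in DMM by value were Col1a1, at 5708 ± 2289 and 5343 ± 658 CPM, Col1a2, at 4998 ± 1983 and 4809 ± 589 CPM, and Pi16, at 56.0 ± 7.96 and 47.3 ± 12.6 CPM, each with the limbs overlapping. The part of these markers in the Has1 level was not tested.

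At 4 weeks Has1 was 46.7, 48.8 and 8.56 CPM in control and 50.5, 51.2 and 49.3 CPM in DMM. The limbs did not overlap, but control replicates 1 and 2 were close to the DMM libraries and control replicate 3 alone was low. The log2 difference was 0.54 (SE 0.53, adjusted p = 0.616, edgeR), and it lay between 0.07 and 0.86 under the alternatives. Control cartilage had a mean of 34.7 ± 22.7 CPM at 4 weeks and 17.9 ± 4.22 CPM at 12 weeks (SD, n = 3), a difference of -0.95 on the log2 scale with an adjusted p of 0.317 in edgeR. Without 4-week control replicate 3 the difference was -1.44 and the adjusted p 0.0263 in edgeR. That was the lowest of 17 alternatives, over which the adjusted p ran up to 0.6775. On leaving out 1 library, the transcripts called in this comparison ranged from 37 to 4683. In DMM cartilage the means were 50.3 ± 0.934 and 63.5 ± 34.6 CPM (SD, n = 3). The change in the limb difference between weeks was 1.29 (SE 0.80, adjusted p = 0.471, edgeR).

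Has2 (chr15:56665627-56694546, minus strand), a synthase of long hyaluronan chains and the main one in embryonic tissues, was 17.8, 16.2 and 8.95 CPM in control and 13.2, 12.9 and 12.8 CPM in DMM at 4 weeks. At 12 weeks it was 7.23, 10.9 and 4.97 CPM in control and 8.01, 14.5 and 7.10 CPM in DMM. The limbs overlapped at both weeks, with log2 differences of -0.14 (SE 0.27, adjusted p = 0.812, edgeR) and 0.35 (SE 0.35, adjusted p = 0.618). In control cartilage Has2 was lower at 12 than at 4 weeks by value (-0.89 on the log2 scale, SE 0.34, adjusted p = 0.132, edgeR). Without 4-week control replicate 3 the difference was -1.17 with an adjusted p of 0.0225 in edgeR, the lowest of 17 alternatives. Over these the adjusted p ran up to 0.364. Has2 and the antisense transcript Has2os share 182 bases in the annotation, and without strand-specific reads the counts of the pair cannot be fully separated there.

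Has3 (chr8:106870242-106882902, plus strand) was close to undetected. Its counts were 13, 3 and 8 in control and 7, 3 and 6 in DMM at 4 weeks, and 7, 10 and 9 in control and 3, 1 and 12 in DMM at 12 weeks, out of at least 27706547 counts a library. It did not pass the filter on low counts in either comparison of the limbs, and a difference was not detectable at this depth. The log2 levels of Has1 and Has2 gave r = 0.578, beside r = 0.918 for Has1 with Vcan and r = 0.902 for Has2 with Hapln1, each over 12 libraries that share their group and tissue makeup.

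Cd44 (chr2:102811141-102901669, minus strand) is the main surface receptor for hyaluronan and is carried by chondrocytes and also by leukocytes and fibroblasts. It was 141, 203 and 190 CPM in 4-week control cartilage and 238, 285 and 313 CPM in 4-week DMM cartilage. Every DMM library lay above every control library. The log2 difference was 0.64 (SE 0.23), with an unadjusted p of 0.0214 and an adjusted p of 0.320 in edgeR. At 12 weeks the limbs met, at 209, 165 and 177 CPM in control and 184, 193 and 188 CPM in DMM, a difference of 0.04 (SE 0.14, adjusted p = 0.903, edgeR). The change between the weeks was -0.61 (SE 0.26, adjusted p = 0.405), and it was not called. In the comparison of weeks within DMM cartilage, edgeR called 23.6% of all transcripts. There Cd44 fell by 0.57 on the log2 scale from 4 to 12 weeks (SE 0.18, adjusted p = 0.0405, edgeR). The adjusted p rose to between 0.0518 and 0.123 without DMM replicate 2 or 3 of 4 weeks, without any 1 of the DMM libraries of 12 weeks, or without control replicate 2 of 4 weeks. A fit with a block for the replicate number also took it above 0.05.

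Markers of some cells that carry the receptor stood beside it, and those of others did not. At 4 weeks 6 of 6 macrophage markers tested were higher in DMM, by a median of 0.73 on the log2 scale, with sums of 2903 to 6218 CPM against 1922 to 4447 CPM in control. For the 8 fibroblast and synovium markers 7 were higher, with a median of 1.11 and sums of 5956 to 10321 CPM against 3535 to 6669 CPM. At 12 weeks all 6 macrophage markers were lower in DMM (median -0.42, sums of 3398 to 4059 CPM against 4166 to 5696 CPM), while 5 of the 8 fibroblast and synovium markers were higher (median 0.91). Other carriers differed from these at 4 weeks. Higher in DMM were 3 of 8 neutrophil and marrow markers (median -0.05), 2 of 5 lymphocyte markers (-0.15) and 2 of 14 chondrocyte markers (-0.90). At 12 weeks the numbers were 0 of 8 (-0.51), 0 of 5 (-0.54) and 14 of 14 (0.44). Within DMM cartilage, 12 against 4 weeks, 0 of 6 macrophage markers were higher (median -1.27, 4 called lower by edgeR). Of the fibroblast and synovium markers 3 of 8 were higher (-0.78, 2 called higher and 3 lower). Higher there were also 8 of 8 neutrophil and marrow (0.60), 2 of 5 lymphocyte (-0.14) and 12 of 14 chondrocyte markers (0.62), with 1, 0 and 3 called higher. The part of any of these lists in the Cd44 level was not tested. Over the 12 libraries the log2 levels of Cd44 gave r = -0.715 with Acan and r = -0.783 with Hyal1. The groups and the tissue makeup of each library were shared by these genes.

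The hyaluronidases cut hyaluronan, Hyal2 at the cell surface into large pieces and Hyal1 within lysosomes. Hyal1 (chr9:107576950-107581699, plus strand) was 19.6, 18.2 and 13.8 CPM in control and 15.3, 11.2 and 10.9 CPM in DMM at 4 weeks, and 15.8, 15.97 and 14.6 CPM in control and 14.1, 17.9 and 15.7 CPM in DMM at 12 weeks. Only DMM replicate 1 reached the control range at 4 weeks, and at 12 weeks the limbs were interleaved. The difference was -0.47 (SE 0.23, adjusted p = 0.389, edgeR) and then 0.05 (SE 0.14, adjusted p = 0.884). Hyal1 shares 267 bases with Naa80 on the same strand, where reads of the pair cannot be separated. Hyal2 (chr9:107567873-107572778, plus strand) was 31.6, 27.4 and 26.5 CPM in control and 25.04, 28.3 and 22.4 CPM in DMM at 4 weeks, and 26.0, 25.1 and 20.4 CPM in control and 24.6, 29.3 and 25.8 CPM in DMM at 12 weeks. Its differences were -0.18 (SE 0.18, adjusted p = 0.640, edgeR) and 0.16 (SE 0.14, adjusted p = 0.573).

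The comparisons across weeks gave few member calls. For the change of the limb difference, edgeR called 0 of 10 members and 0% of all transcripts, with 2 of 10 members (Acan and Cd44) and 12.3% of transcripts at an unadjusted p under 0.05. In control cartilage, 12 against 4 weeks, it called 0 of 10 beside 5.70%, with 2 of 10 (Hapln3 and Has2) beside 25.4% before adjustment. In DMM cartilage it called 2 of 10, Acan and Cd44, beside 23.6%, and the same 2 stood under 0.05 before adjustment, beside 37.4%. The plot of log2 differences sets the limbs side by side for each gene and week.

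**Figure D2:**
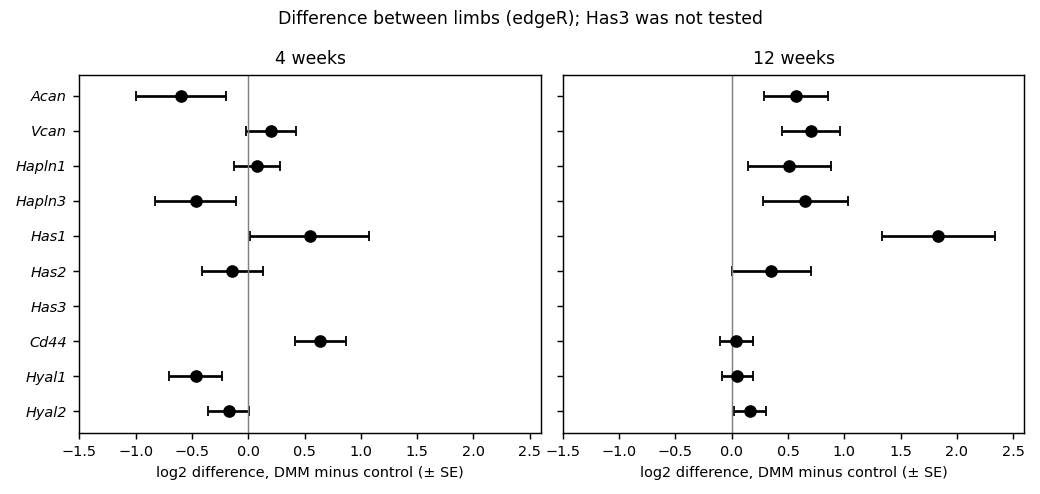
Log2 difference of DMM from control RNA for each tested member at 4 and 12 weeks; points are edgeR estimates and bars are 1 standard error. At 12 weeks all 9 estimates lie above 0, from 0.04 for Cd44 to 1.84 for Has1, and none passed the adjusted threshold.

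Other genes of hyaluronan and aggrecan turnover were followed from 3 lists. Of 27 further genes that bind, carry, make precursors of or clear hyaluronan, 12 of 20 tested were higher in DMM at 4 weeks and 13 of 19 at 12 weeks, and edgeR called 0 at either. At an unadjusted p under 0.05 in edgeR stood 1 of 20 and 6 of 19, beside 13.7% and 16.3% of all transcripts. Among the most abundant per kilobase were Hexa (140 CPM per kilobase over the libraries), which acts in lysosomes on hyaluronan pieces, and Ugdh, which makes the precursor UDP-glucuronate. Ugdh was 232 ± 85.9 CPM in control and 333 ± 46.5 CPM in DMM at 4 weeks and 147 ± 31.0 and 224 ± 65.4 CPM at 12 weeks (SD, n = 3), differences of 0.52 and 0.61 on the log2 scale with adjusted p = 0.432 and 0.278 in edgeR. Across weeks edgeR called 2 of 20 in control, beside 5.70% of all transcripts, and 3 of 20 in DMM, beside 23.6%. Lyve1, a hyaluronan receptor of lymphatic vessels and some macrophages, was higher in DMM at 12 weeks by 1.91 (unadjusted p = 0.000576, adjusted p = 0.126, edgeR). It was lower at 12 than at 4 weeks in control (log2 difference -3.57, adjusted p = 0.00996, edgeR) and in DMM (-2.51, adjusted p = 0.00910). Itih5, of the family that passes heavy chains to hyaluronan, was also lower at 12 weeks in control (-1.31, adjusted p = 0.0382) and in DMM (-1.73, adjusted p = 0.00546). Ugp2, which makes UDP-glucose, was lower at 12 weeks in DMM (-0.93, adjusted p = 0.0449).

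Of 9 proteases that cut aggrecan, 8 were tested between limbs, 6 of them higher in DMM at 4 weeks and 4 at 12 weeks, and edgeR called 0. Mmp3, stromelysin, had the widest log2 differences, with 25.4 ± 14.0 CPM in control and 327 ± 299 CPM in DMM at 4 weeks and 9.76 ± 4.03 and 42.6 ± 17.2 CPM at 12 weeks (SD, n = 3), differences of 3.68 (SE 0.74, adjusted p = 0.203, edgeR) and 2.13 (SE 0.43, adjusted p = 0.184). The collagenase Mmp13 was the most abundant, at 185 CPM per kilobase, and differed by 0.93 (SE 0.46, adjusted p = 0.391) and 0.08 (SE 0.20, adjusted p = 0.860). The third by level, Adamts1, differed by -0.48 and -0.24 (adjusted p = 0.387 and 0.597). Within DMM cartilage 3 of 9 were called lower at 12 than at 4 weeks, beside 23.6% of all transcripts called in either direction, with log2 differences of -2.94 for Mmp3 (adjusted p = 0.0163, edgeR), -1.27 for Mmp13 (adjusted p = 0.0323) and -0.999 for Adamts5, the main aggrecanase of the mouse (adjusted p = 0.0245). Of the SOX factors that drive Acan, Sox9, which is also on the list of chondrocyte markers, stood beside Acan in the direction of each difference. It was 139 ± 56.8 CPM in control and 67.6 ± 26.1 CPM in DMM at 4 weeks and 171 ± 96.7 and 286 ± 62.1 CPM at 12 weeks (SD, n = 3). Neither difference between limbs was called (-1.03, adjusted p = 0.331, and 0.75, adjusted p = 0.342, edgeR), and in DMM cartilage Sox9 was higher at 12 than at 4 weeks by 2.08 (adjusted p = 0.00751). Sox5 differed by 0.09 and 0.71 and Sox6 by -0.20 and 0.07 between limbs, none called. The part of these factors in the Acan level was not tested.

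Several members make more than 1 transcript, and rows that differ by single exons allowed the forms to be followed. These differences were noticed after the values were seen and were given no test. The reads of an exon were the difference between the counts of rows with and without it. Versican carries its chondroitin sulfate chains on 2 exons, GAG-alpha and GAG-beta, that are spliced in or out, and the row with neither exon served as the reference. In 4-week control cartilage the GAG-alpha exon, of 2880 bases, held 27.9, 31.7 and 25.7% of the reads per kilobase of that reference, and in 4-week DMM cartilage 22.3, 20.7 and 20.6%. Control and DMM were apart. At 12 weeks they overlapped, at 28.5 ± 7.93% in control and 21.7 ± 5.403% in DMM (SD, n = 3). The GAG-beta exon, of 5217 bases, overlapped at both weeks, at 44.7 ± 7.90% and 52.8 ± 5.20% at 4 weeks and 51.3 ± 7.43% and 40.4 ± 10.05% at 12 weeks. The GAG-alpha values rested on 36 to 128 reads a library.

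CD44 exists in a standard form and in variant forms that keep some of the variable exons. The variable exons, of 1245 bases in 10 blocks, held few reads, 34 to 71 a library. Relative to the standard row per kilobase they stood at 1.89 ± 0.159% in control and 1.82 ± 0.172% in DMM at 4 weeks and at 2.61 ± 0.228% and 2.61 ± 0.205% at 12 weeks (SD, n = 3). All 6 libraries of 4 weeks, from 1.69 to 2.02%, lay below all 6 of 12 weeks, from 2.42 to 2.87%, and the limbs overlapped at both. The reference row held 5012 or more reads in every library, over exons that all of these forms share.

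**Figure D3:**
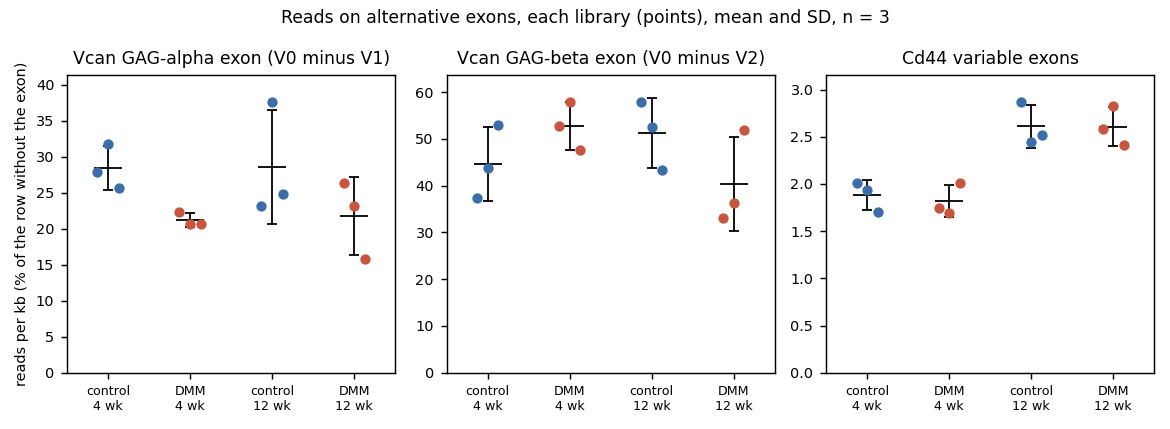
Reads per kilobase of the alternative exons as a percentage of the reference row, by library, for versican GAG-alpha and GAG-beta and for the Cd44 variable exons. The Cd44 variable exons lie between 1.69 and 2.02% at 4 weeks and between 2.42 and 2.87% at 12 weeks, with no overlap of the weeks.

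DNA methylation was read in other mice of the same design. Reduced-representation libraries were cut at CCGG with MspI and treated with bisulfite, which leaves both 5-methylcytosine (5mC) and 5-hydroxymethylcytosine (5hmC) as cytosine, or first oxidized, which leaves only 5mC. The oxidized libraries gave 5mC and the difference of the pair gave 5hmC. Gene starts rich in CpG are usually free of 5mC in any tissue, while the bodies of genes carry it. Coordinates are those of GRCm38, the build of the files. The 250 bases before the start of the counted transcript are given for 4 members from the RefSeq table of GRCm38.p6, with every CpG in capitals, since the assay reads only CpG close to a CCGG site and these promoters differ widely in both.
Acan, chr7:79052976-79053225, plus strand: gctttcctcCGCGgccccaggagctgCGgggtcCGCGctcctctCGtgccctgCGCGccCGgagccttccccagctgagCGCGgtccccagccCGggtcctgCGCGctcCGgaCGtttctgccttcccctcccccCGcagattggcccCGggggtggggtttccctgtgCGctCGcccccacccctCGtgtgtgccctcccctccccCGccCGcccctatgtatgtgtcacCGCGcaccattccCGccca
Hapln3, chr7:79131019-79131268, minus strand: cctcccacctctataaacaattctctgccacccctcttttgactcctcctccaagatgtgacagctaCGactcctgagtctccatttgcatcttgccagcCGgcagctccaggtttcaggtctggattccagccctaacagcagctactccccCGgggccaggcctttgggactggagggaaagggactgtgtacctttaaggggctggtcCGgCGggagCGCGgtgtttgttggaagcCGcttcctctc
Has1, chr17:17855189-17855438, minus strand: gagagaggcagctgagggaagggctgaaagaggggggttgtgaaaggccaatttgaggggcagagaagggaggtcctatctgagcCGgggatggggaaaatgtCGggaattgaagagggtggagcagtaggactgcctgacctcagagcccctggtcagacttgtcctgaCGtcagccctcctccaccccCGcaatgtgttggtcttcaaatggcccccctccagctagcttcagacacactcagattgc
Hapln1, chr13:89540386-89540635, plus strand: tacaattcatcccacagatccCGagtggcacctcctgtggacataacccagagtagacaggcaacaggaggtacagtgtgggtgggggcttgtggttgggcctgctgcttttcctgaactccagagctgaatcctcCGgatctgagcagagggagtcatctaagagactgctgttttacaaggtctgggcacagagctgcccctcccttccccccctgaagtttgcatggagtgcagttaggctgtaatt

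Acan held 26 CpG and 4 CCGG sites in that stretch, a CpG number reached by 9.59% of 32851 promoters of the same length, and Hapln3 held 8 CpG (43.0% of promoters reach that number), Has1 4 (62.2%) and Hapln1 2 (81.2%). Of the other members in the table, Hyal2 had 13 (31.5%), Vcan 10 (37.8%), and Cd44 and Hyal1 5 each (55.6%), where the median promoter had 6. CCGG was present in 47.1% of all promoters. The table held 8 of the 10 members, and Has2 and Has3 were not among them. For Has1 no cytosine was tested at the start of the transcript, so the gene with the widest RNA difference had no methylation value at its own promoter. Its tested cytosines lay 16824 to 26340 bases past that start.

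The start of Acan was nearly free of 5mC and its body was not. Over 50 cytosines within 1000 bases of the start the mean 5mC level was 1.35 ± 0.47% in control and 0.892 ± 0.403% in DMM at 4 weeks, and over 46 cytosines at 12 weeks 1.32 ± 0.55% and 0.878 ± 0.160% (SD, n = 3). Further downstream, 48 cytosines averaged 58.2, 51.8 and 52.8% in control and 50.4, 50.0 and 51.3% in DMM at 4 weeks. At 12 weeks 47 cytosines averaged 59.2, 62.2 and 63.5% in control and 56.8, 63.1 and 54.8% in DMM. The limbs did not overlap at 4 weeks and overlapped at 12 weeks. In the window of the gene with its flanks the difference was -2.04 points at 4 weeks (adjusted p = 0.777, limma) and -1.94 points at 12 weeks (adjusted p = 0.535). The start window differed by -0.45 and -0.44 points (adjusted p = 0.777 and 0.502).

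**Figure D4:**
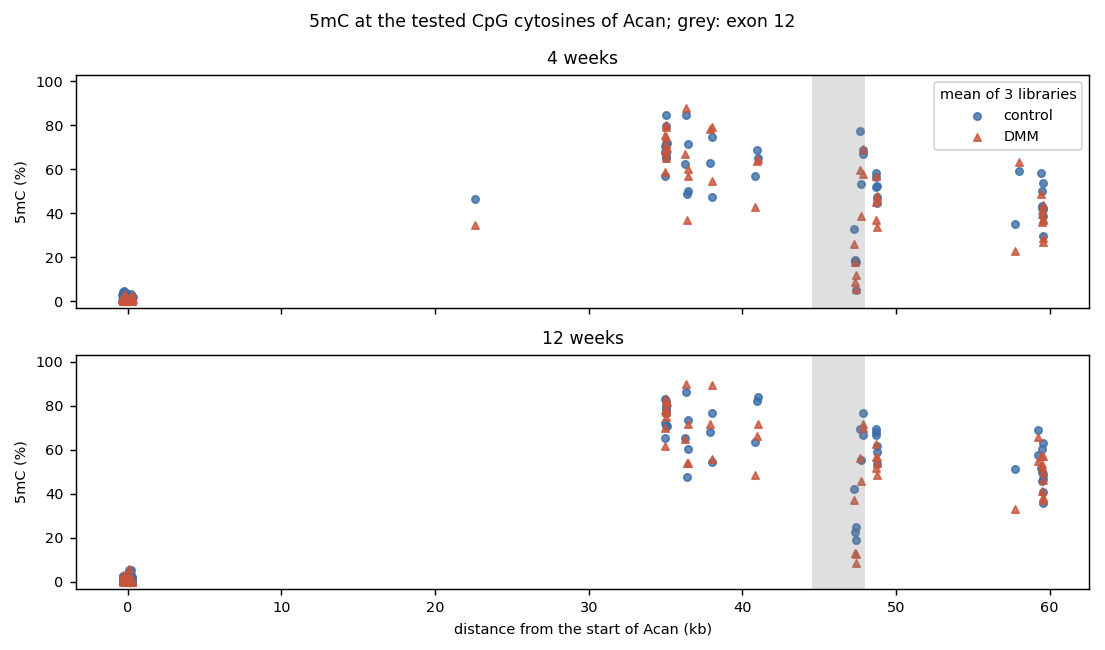
5mC level of each tested cytosine of Acan against its distance from the transcript start in kilobases, as the mean of the 3 control and of the 3 DMM libraries at each week; the shaded span is exon 12. Cytosines within 1 kb of the start lie close to 0, and those further downstream range from 5.397 to 86.2% at 4 weeks.

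Within the body, the lower 5mC of DMM was found in some exons and not in others. Exon 10 of Acan, with 3 cytosines, read 62.9, 63.8 and 63.9% in control and 56.9, 51.3 and 62.7% in DMM at 4 weeks, and 76.2, 82.2 and 71.2% against 61.3, 59.6 and 65.3% at 12 weeks. DMM lay below control at both weeks there. Exon 7, also with 3 cytosines, went the other way at both weeks, at 61.6 ± 3.68% and 70.8 ± 9.56% and then 66.5 ± 1.75% and 72.5 ± 4.86% (SD, n = 3). Exon 5, with 9 cytosines, was 69.9 ± 6.15% and 71.3 ± 1.30% and then 76.4 ± 1.96% and 76.0 ± 5.54%. In exons 6 and 15, with 3 and 9 cytosines, DMM lay below control at 4 weeks (-5.33 and -6.74 points). At 12 weeks the limbs overlapped in both (-0.55 and -1.03 points). Exon 12 is the longest of the 17 exons of Acan, with 3483 bases, and encodes most of the region to which chondroitin sulfate chains attach. Its mean over 9 cytosines was 44.2, 32.9 and 42.4% in control and 32.4, 30.0 and 36.1% in DMM at 4 weeks. Over 8 cytosines at 12 weeks it was 47.6, 43.8 and 50.1% in control and 37.4, 42.7 and 38.0% in DMM. The limbs overlapped at 4 weeks through control replicate 2 and did not overlap at 12 weeks. These exons were picked out after their values were seen. Coding stretches around 5 of the tested CpG of exon 12, and around 4 of those of exon 2 of Hyal2 described next, follow with these CpG in capitals. The first stretch ends on the cytosine of a further CpG, which was tested at 12 weeks and is left in lower case.
Acan exon 12, chr7:79100570-79100639, plus strand: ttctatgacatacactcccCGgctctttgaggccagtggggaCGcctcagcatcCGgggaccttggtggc
Acan exon 12, chr7:79100861-79100930, plus strand: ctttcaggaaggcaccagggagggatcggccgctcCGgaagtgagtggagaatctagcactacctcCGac
Hyal2 exon 2, chr9:107570204-107570263, plus strand: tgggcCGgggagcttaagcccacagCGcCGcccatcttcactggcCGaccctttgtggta

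A cytosine was called at q under 0.05 and a difference of at least 25 points, by a likelihood ratio test on pooled reads with at least 10 reads in each library. That test takes reads as independent and leaves out the spread between libraries, and with a correction for overdispersion it called 0 of all cytosines at either week. None of the 432 member cytosines was called at 4 weeks, beside 0.000554% of all cytosines, and none of 399 at 12 weeks, beside 0.227%. At an unadjusted p under 0.05 stood 40 of 432 and 53 of 399 member cytosines, beside 8.02% and 9.43% of all. The limbs did not overlap at 31 of 432 at 4 weeks (20 of them lower in DMM) and at 31 of 399 at 12 weeks (21 lower), 7.18% and 7.77% of the members beside 6.14% and 8.11% of all. The shares without overlap were near the background at both weeks.

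The widest difference of any member cytosine at 4 weeks was in exon 2 of Hyal2, at position 107570249 of chromosome 9, the last capital pair of the printed stretch. Control libraries read 43.5, 44.0 and 28.0% and DMM libraries 16.4, 20 and 10.3%, on 10 to 55 reads each. Control and DMM did not overlap, and the pooled difference was -25.4 points (q = 0.115, and 1.0 with the correction for overdispersion). Its neighbour at 107570232 read 73.9, 41.7 and 44.0% in control and 25.5, 10 and 35.9% in DMM (-22.1 points, q = 0.409), and at 12 weeks the difference there was -5.22 points. The 4 to 7 cytosines of this exon averaged 47.9 ± 18.1% in control and 32.5 ± 5.94% in DMM at 4 weeks and 37.2 ± 4.72% and 27.6 ± 11.4% at 12 weeks (SD, n = 3), and the limbs overlapped. The cytosine of Acan exon 12 at position 79100896 of chromosome 7 read 93.5, 62.2 and 76.0% in control and 51.4, 57.9 and 69.2% in DMM at 4 weeks (-12.2 points, q = 0.5995), and 65.3, 64.7 and 78.9% against 53.1, 59.1 and 56.1% at 12 weeks (-14.8 points, q = 0.387). Without 4-week control replicate 2, the library read most deeply, this cytosine (-27.1 points, q = 0.0245) and the one at 107570232 (-30.4 points, q = 0.0434) were called, both lower in DMM.

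The cytosines assigned to Has1 lay mostly over its neighbours. A longer annotated form of Has1 ends at position 17833691 of chromosome 17, and the 5000 bases beyond it hold the microRNA genes Mir99b, Mirlet7e and Mir125a, within Spaca6 on the opposite strand. There 25 cytosines at 4 weeks averaged 44.8, 24.9 and 35.6% in control and 32.5, 24.7 and 29.8% in DMM. At 12 weeks 24 cytosines averaged 42.1, 36.9 and 43.1% in control and 29.3, 32.6 and 33.2% in DMM, and the limbs did not overlap. The widest single difference, at position 17830462, just past Mirlet7e, was -21.8 points, from 78.9, 70.6 and 87.9% in control to 53.2, 70.6 and 61.5% in DMM (q = 0.0867). In the whole Has1 window of 51 cytosines the 12-week values were 21.4, 18.6 and 21.6% in control and 14.6, 16.6 and 16.6% in DMM, a difference of -4.59 points with an unadjusted p of 0.00680 and an adjusted p of 0.131 in limma. An exact permutation test over the 3 and 3 libraries gave p = 0.100, the smallest such a design can give. At 4 weeks the difference was -3.82 points (adjusted p = 0.778), and it was -0.96 points when control replicate 1 was left out and -6.99 points when control replicate 2 was. Whether this methylation belongs to Has1 or to the genes it overlies cannot be told apart here.

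Cd44 had few cytosines, none of them near its start. Its window of 10 cytosines at 4 weeks and 8 at 12 weeks averaged 60.1 ± 6.38% in control and 54.7 ± 3.32% in DMM at 4 weeks (SD, n = 3), and 68.3 ± 2.59% and 61.6 ± 4.67% at 12 weeks, differences of -5.38 points (adjusted p = 0.777, limma) and -6.74 points (adjusted p = 0.280). On leaving out 1 library they ranged from -8.90 to -2.69 points at 4 weeks, where control replicates 2 and 1 gave these ends, and from -8.64 to -4.13 points (without DMM replicate 2) at 12 weeks. In intron 1, 4 cytosines averaged 62.2, 38.8 and 48.3% in control and 39.4, 29.8 and 34.3% in DMM at 4 weeks. At 12 weeks 2 cytosines were covered there, at 54.6, 59.1 and 64.2% in control and 46.2, 36.9 and 46.7% in DMM. Only DMM replicate 1 of 4 weeks reached the control range, and at 12 weeks the limbs did not overlap. In intron 5, 4 cytosines stayed between 67.0 and 81.0% in every library.

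Start windows were tested at both weeks for 5 members. Of these only Has2 had an unadjusted p under 0.05 in limma at both weeks, lower in DMM each time. Its 19 cytosines at 4 weeks averaged 2.26, 1.66 and 2.79% in control and 1.57, 1.08 and 1.13% in DMM, a difference of -0.98 points (unadjusted p = 0.0182 and adjusted p = 0.777, limma). Its 25 cytosines at 12 weeks averaged 2.61, 1.90 and 2.29% in control and 1.22, 1.93 and 1.504% in DMM, a difference of -0.72 points (unadjusted p = 0.0358 and adjusted p = 0.251, limma). The limbs did not overlap at 4 weeks and did at 12 weeks through a single library. All levels were below 3%, beside 0.284 to 0.742% of cytosine read in the mitochondrial DNA of the oxidized libraries.

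Vcan and Hapln1 were read at cytosines with little 5mC. Vcan was read at 25 cytosines of intron 1 only, at 0.621 ± 0.272% in control and 1.06 ± 0.470% in DMM at 4 weeks and 0.226 ± 0.218% and 0.342 ± 0.130% at 12 weeks (SD, n = 3). It was the only member whose gene window was higher in DMM at both weeks, by 0.44 and 0.12 points. These levels were near the 0.284 to 0.742% of cytosine read in the mitochondrial DNA of the oxidized libraries. On leaving out 1 library the 12-week difference was as little as 0.003 points. Hapln1 was read at 13 cytosines upstream of its start, at 1.59 ± 0.625% and 0.937 ± 0.123% and then 1.03 ± 0.322% and 0.827 ± 0.556%. The start window of Hapln3 held 7 cytosines and differed by 1.35 points at 4 weeks (adjusted p = 0.786, limma) and -2.40 points at 12 weeks (adjusted p = 0.632). Its parts did not move alike. In intron 1, 3 of them averaged 16.2 ± 3.15% in control and 22.9 ± 5.56% in DMM at 4 weeks and 21.6 ± 8.71% and 21.2 ± 3.59% at 12 weeks (SD, n = 3), and the limbs overlapped. The 4 before the start were at 5.78, 3.93 and 7.19% in control and 4.73, 1.67 and 2.595% in DMM at 4 weeks and 8.48, 8.74 and 5.16% against 3.14, 2.28 and 5.14% at 12 weeks, where the limbs came apart by a small margin. The end of Acan lies within the window of Hapln3, so 9 cytosines of Acan exon 15 are shared by both genes at 4 weeks and 11 cytosines of Acan at 12 weeks. Has3, with almost no RNA, had an unmethylated start, at 2.25 ± 0.219% and 2.62 ± 0.524% at 4 weeks and 2.44 ± 0.438% and 3.27 ± 0.751% at 12 weeks over 59 and 39 cytosines. Hyal2 exon 1 stood below 1% in every library. The start window of Hyal1 at 4 weeks differed by -10.2 points (8 cytosines, adjusted p = 0.777, limma), or -5.28 without control replicate 1, and too few of its cytosines were covered at 12 weeks. Most of the 45 cytosines of Hyal1 at 4 weeks lay further on. Those of exon 4, 27 in number and shared with Naa80, averaged 17.1 ± 0.229% in control and 16.98 ± 0.605% in DMM, and 10 past the gene averaged 82.7 ± 2.99% and 79.4 ± 3.39% (SD, n = 3), with the limbs overlapping in both.

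Across the windows, the gene window was lower in DMM for 9 of 10 members at each week, with medians of -2.33 and -0.997 points. For Has3 at 4 weeks the difference was only -0.0007 points. The windows were not all separate, since those of Hyal1 and Hyal2 shared 8 cytosines at 4 weeks and 4 at 12 weeks. Over all genes 20782 of 28864 windows at 4 weeks and 20457 of 28477 at 12 weeks were also lower, with medians of -0.35 and -0.44 points. limma called 0 of the 16 member windows tested at 4 weeks and 0 of 15 at 12 weeks, beside 0% of all windows at both weeks. At an unadjusted p under 0.05 stood 1 of 16 (the Has2 start), beside 3.82%, and 3 of 15 (Cd44, the Has2 start and Has1), beside 17.2%.

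**Figure D5:**
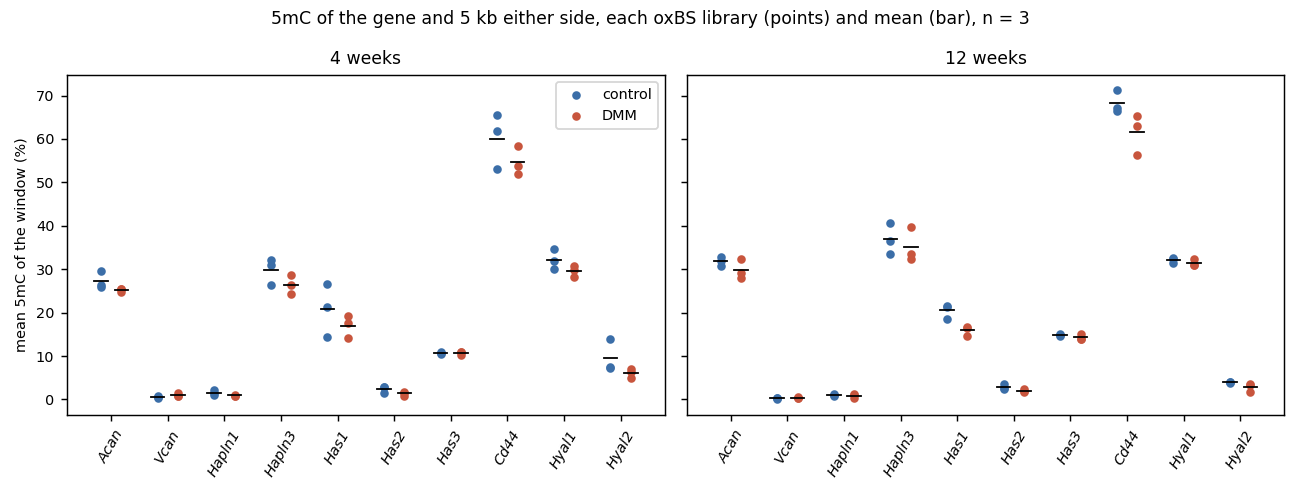
Mean 5mC level, in percent, over each member gene with 5 kb on either side, in the 3 control and 3 DMM oxidized libraries (points) with their mean (bar) at 4 and 12 weeks. At 12 weeks the DMM libraries of Has1 (14.6 to 16.6%) lie below its control libraries (18.6 to 21.6%), and Vcan, Hapln1 and Has2 lie close to 0 in all libraries.

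5hmC, an oxidized form of 5mC, was low at most members. Averaged over all cytosines it was 2.16 ± 0.501% in control and 2.58 ± 0.265% in DMM at 4 weeks and 1.53 ± 0.0997% and 2.04 ± 0.289% at 12 weeks (SD, n = 3), the latter with p = 0.100 by exact permutation, the smallest the design can give. The member with the most was Cd44, in its gene body. There it was 13.8, 18.2 and 12.5% in control and 10.1, 17.5 and 17.1% in DMM at 4 weeks over 8 cytosines, and 11.9, 10.3 and 10.4% against 18.4, 11.9 and 15.6% at 12 weeks over 7, where the limbs came apart only narrowly (difference 4.45 points, exact permutation p = 0.100). For the bisulfite library of 12-week DMM replicate 1, the label and the name of the deposited file give different replicate numbers. The label was followed, so if it is wrong the 5hmC of that replicate subtracts libraries of different samples. Without it the Cd44 difference was 2.90 points. Acan held 5.48 ± 1.36% and 6.88 ± 0.721% at 4 weeks and 2.80 ± 2.05% and 4.60 ± 0.924% at 12 weeks over its gene window (exact permutation p = 0.300 and 0.200), and about 0 at its start. Has3 at 12 weeks stood at 1.26 ± 0.331% in control and 2.22 ± 0.198% in DMM (exact permutation p = 0.100). From pooled reads the 12-week differences turned, to -1.21 points for Acan and -1.13 points for Has3. At 4 weeks the Hapln1 gene window (2.36 points, 6 cytosines) and the Hyal2 start window (-0.52 points) also gave p = 0.100 by exact permutation. Of the member windows 9 of 16 at 4 weeks and 12 of 15 at 12 weeks were higher in DMM, in the direction of the mean over all cytosines. The count at 12 weeks was not stable, at 6 of 15 from pooled reads, 7 of 13 at 20 reads and 7 of 15 without DMM replicate 1. Negative values occurred, such as -0.802 ± 0.348% for the 4-week control libraries at Hapln1, since 5hmC was the difference of separate measurements. The error of that difference was not measured, and small values of either sign are uncertain.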

How the data were processed

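RNA counts per RefSeq transcript (mm10) were deposited by the authors, who aligned reads with STAR and counted them with featureCounts after, per the methods, SMART-Seq v4 amplification, which does not mark strand (the labels name a poly(A) TruSeq kit). Methylation files deposited by the authors hold the percent methylation and read counts per cytosine from Bismark, with CASAVA 2.17 named in the processing notes. Each RNA or DNA sample pooled 3 knees. The members and lists were chosen with earlier results of these data known.

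Of 30048 count rows, 29476 took a name from RefSeq, 17 from a supplementary list and 555 had none. edgeR 4.0.16 (TMM, filterByExpr, robust quasi-likelihood, Benjamini-Hochberg) was fitted to all rows for each week, and to all 12 libraries for comparisons between weeks. Cytosines needed 10 reads in all 6 oxidized libraries of a week. Window means (5 cytosines or more; 1000 bases around the start, or the gene and 5000 bases) were tested with limma 3.58.1 on the logit with an offset of 0.01. 5hmC was tested by two-sided exact permutation. DESeq2 1.42.0 was an alternative. Scripts were tested on simulated data. The correlation of the deviations of same-numbered limbs did not settle whether the sample numbers pair the limbs, and the main tests were unpaired. Pathway genes were named where called or as the 3 of a list with the highest level per kilobase. Some genes that the naming rules select are not reported here. P-values from edgeR, limma and permutation measure the spread between pooled samples, and those of single cytosines treat reads as independent.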

Additional observations from a re-analysis of the deposited data

How the results depend on the processing

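The number of transcripts called varied widely with the test and with single libraries. For DMM against control at 4 weeks, 16 in the main analysis became 748 with DESeq2, 354 with a replicate block, 35 with all 12 libraries in 1 fit, and 0 with at least 10 counts in every library or with 1 row per gene. At 12 weeks, 1 became 873 with DESeq2, 734 with the block and 56 without the filter on low counts. For the interaction DESeq2 gave 16, and for control cartilage across weeks 3009, against 821 with 1 row per gene. Leaving out 1 library gave 0 to 118 at 4 weeks, 0 to 860 at 12 weeks, 0 to 3 for the interaction, 37 to 4683 for control and 1682 to 6396 for DMM cartilage across weeks. Same-numbered limbs deviated together with r = 0.370, -0.359 and 0.085 in RNA at 4 weeks and -0.585, 0.285 and -0.268 at 12 weeks. In 5mC these r were 0.249, 0.204 and 0.003 at 4 weeks, where differently numbered limbs ran from -0.284 to 0.008. At 12 weeks they were -0.059, -0.041 and 0.042. Whether the numbers pair limbs of the same mice cannot be told from so few libraries. Of the member calls the block moved 1, Cd44 in DMM cartilage across weeks (adjusted p = 0.0508).

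For 5mC at 4 weeks, 8 cytosines called became 4 at 20 reads, 0 with an overdispersion correction, 24 with unweighted library means, 53 with the block, 26 at 20 points and 5 to 3039 on leaving out 1 library (0 to 2 among the members). At 12 weeks 2892 became 1519 at 20 reads, 0 with overdispersion, 8582 at 20 points, 1388 without the pair of samples titled in another style and 1640 to 5238 on leaving out 1 library. An offset of 0.05 gave 425 windows at 12 weeks. The 5hmC windows higher in DMM at 12 weeks were 6 from pooled reads, 7 at 20 reads and 7 to 12 on leaving out 1 library. At 4 weeks that range was 6 to 9.

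Several differences, none of them called, turned direction. At 20 reads and from pooled reads, in points, the Has3 gene window gave 0.40 and 0.89 at 4 weeks and 0.014 and 1.32 at 12 weeks, the Hyal2 start window -0.19 and -0.054 at 4 weeks, and the Hyal2 gene window 0.19 at 20 reads at 12 weeks. On leaving out 1 library the log2 differences of the limbs ranged from -0.40 to 0.043 for Has2 and from -0.031 to 0.22 for Hapln1 at 4 weeks, and from -0.065 to 0.12 for Cd44, -0.036 to 0.11 for Hyal1 and -0.015 to 0.66 for Has2 at 12 weeks. Across weeks they ranged in control from -0.12 to 0.15 for Cd44, -0.22 to 0.36 for Acan and -0.25 to 0.80 for Has3, in DMM from -1.42 to 0.20 for Has3, -0.046 to 0.13 for Hyal2 and -0.10 to 0.34 for Vcan, and for the Has3 interaction from -1.58 to 0.074. Window differences ranged from -0.13 to 0.26 points for the Has3 gene and -0.10 to 0.089 for the Hyal2 start at 4 weeks, and from -0.11 to 0.13 for the Hyal2 start, -4.02 to 0.16 for the Hapln3 gene and -0.46 to 0.091 for the Hapln1 gene at 12 weeks. The 5hmC differences ranged from -1.34 to 5.37 points for the Hyal1 start (2.20 with all libraries) and from -0.75 to 4.30 for the Hapln3 gene (1.13) at 4 weeks. The causes were not tested. Counts were low for Has3, at 1 to 13 a library, and for the Cd44 variable exons, at 34 to 71 reads.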
